A study of Mus musculus with 24 samples.

Results

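Egr1, Egr2, Egr3, Nr4a1, Nr4a2, Nr4a3, Ier2, Klf2, Klf4 and Klf6 are early-response transcription factor genes and a companion early gene, and their levels were followed across cultured and freshly isolated mouse bone marrow endothelium and stroma. The 10 genes were taken by symbol from per-library expression files that list 23879 gene symbols, and all 10 were present in every file and passed the filter on low values in every fit. The data were polyA RNA-seq of 24 libraries from C57BL/6J mice, in 8 groups of 3. Each of the 2 cell types, endothelial cells and stroma of the bone marrow, was sequenced in 4 settings: grown in vitro (called culture here), grown without partner cells in the co-culture experiment (alone), grown with hematopoietic stem cells, which the titles call HSPC (with HSPC), and taken from the animal (in vivo). No other genotype, age or agent is given in the labels, except that the titles of all 18 cultured libraries carry the name Akt1 without saying what was done. The 6 in vivo titles do not carry it, so culture, the step named Akt1 and the way the cells were obtained cannot be told apart in any comparison with the in vivo libraries. The column headers of the endothelium in vivo files add the word Young. The labels do not say that the replicates of a group are separate animals or cultures, and p-values then measure only the spread between libraries, which may be technical.

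Most of these genes belong to the immediate-early class: their RNA appears within minutes of a stimulus, without new protein synthesis, and disappears again quickly. Growth factor and stress signals reach the Egr genes through serum response factor (Srf), which binds CArG boxes, and its Elk and Mkl partners. Nab1 and Nab2 bind Egr proteins and hold them back. The Nr4a genes encode orphan nuclear receptors and answer cAMP and calcium signals through Creb1 on the cAMP response element (CRE). Klf2 and Klf4 are zinc-finger factors that laminar blood flow raises in endothelium through the kinase Mapk7 (ERK5) and MEF2 proteins, where they keep vessels non-thrombotic and quiescent. Klf6 is a related factor induced by injury, and Ier2 encodes a small nuclear protein of the same early class. In freshly isolated tissue, genes of this class are also known to respond to the isolation itself.

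The promoters show which of these genes carry matches to the elements named above. RefSeq start sites on mouse build GRCm38.p6 were matched for 7 of the 10 genes, Egr2, Nr4a1, Nr4a2, Nr4a3, Klf2, Klf4 and Klf6. In the 250 bases before the start, Nr4a1, Nr4a2 and Nr4a3 each held 4 copies of the CRE core TGACG, counted on both strands, so that CGTCA also counts. Of 32851 mouse promoters, 17.8% held at least 1 copy and 45 promoters, or 0.137%, held at least 4. A full CRE would count as 2 overlapping cores, and none of the 7 genes held one. Klf2 and Klf4 held 1 core each and Klf6 held none. Egr2 held a CArG box, which 1.47% of the promoters did, and 2 CRE cores before the start shown here, which is 1 of its 5 start entries. Klf2 and Nr4a2 each held a MEF2 site, which 2.92% did, and that of Nr4a2 overlaps a TATA-like match. These are matches of letters and not measured binding. Printed 5′ to 3′ on the gene's strand, with capitals for CRE cores, the CArG box (Egr2, CCATATATGG) and MEF2 sites (Nr4a2, TTATTTATAG, and Klf2, CTAAATTTAG), they set side by side the Nr4a genes, whose levels are compared below, and the genes that hold the other elements. The window of Klf2 and of Nr4a3 stops where an annotated exon begins, so that of Nr4a3 shows 3 of its 4 cores.
Nr4a1, chr15:101266596-101266845, plus strand: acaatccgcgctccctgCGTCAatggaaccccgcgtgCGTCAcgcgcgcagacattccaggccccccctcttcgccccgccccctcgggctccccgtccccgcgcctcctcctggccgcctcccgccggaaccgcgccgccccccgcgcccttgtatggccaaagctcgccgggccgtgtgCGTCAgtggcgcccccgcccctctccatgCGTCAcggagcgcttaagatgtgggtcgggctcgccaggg
Nr4a2, chr2:57124004-57124253, minus strand: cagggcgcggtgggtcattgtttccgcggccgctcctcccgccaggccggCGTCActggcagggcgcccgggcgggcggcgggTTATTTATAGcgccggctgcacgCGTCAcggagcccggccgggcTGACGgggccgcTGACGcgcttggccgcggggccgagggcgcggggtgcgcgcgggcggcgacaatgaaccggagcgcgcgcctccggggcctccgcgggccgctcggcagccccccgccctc
Nr4a3, chr4:48045055-48045152, plus strand: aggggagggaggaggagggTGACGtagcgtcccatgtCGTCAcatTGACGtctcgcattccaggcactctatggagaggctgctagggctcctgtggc
Egr2, chr10:67537619-67537868, plus strand: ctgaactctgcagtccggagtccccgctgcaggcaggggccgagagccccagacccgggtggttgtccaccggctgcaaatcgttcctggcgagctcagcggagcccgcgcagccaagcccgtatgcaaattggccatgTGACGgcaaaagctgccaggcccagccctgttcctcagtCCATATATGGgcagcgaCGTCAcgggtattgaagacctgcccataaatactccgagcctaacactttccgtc
Klf2, chr8:72318812-72319032, plus strand: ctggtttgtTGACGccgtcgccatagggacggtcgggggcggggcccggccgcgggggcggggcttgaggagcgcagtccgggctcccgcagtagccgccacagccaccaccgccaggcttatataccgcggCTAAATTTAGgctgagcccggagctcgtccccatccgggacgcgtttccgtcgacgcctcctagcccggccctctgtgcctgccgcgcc

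Values are FPKM, read fragments scaled by transcript length and by the mapped fragments of the library, so levels can be set side by side between genes; depth in reads is unknown. Endothelial markers summed to 11193 to 23183 FPKM in the 12 endothelium libraries and to at most 401 in the stroma libraries. Stromal markers summed to 3667 to 167509 in stroma and to at most 3080 in endothelium. The cell types lay closest in culture, at 3667 to 11452 in stroma and 290 to 3080 in endothelium. Stroma in the other settings was at 66229 or more. Lepr, which marks marrow stroma in the animal, was listed at 2470 to 2789 FPKM in stroma in vivo but at 0 in all 3 stroma alone libraries. Replicates correlated at 0.990 or more (Pearson r of log2 values) in the 6 other groups, but at 0.933 to 0.948 in cultured endothelium and 0.914 to 0.987 in cultured stroma. In 3 cultured libraries, endothelium replicates 2 and 3 and stroma replicate 3, Xist was at 1006 to 1250 FPKM and 4 Y-linked genes at 0, while Xist was at most 2.35 in the other 21. Where leaving out those 3 libraries changed the call of a result that uses the culture groups, its value without them is given beside it.

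All genes but Nr4a2 had their highest group mean in vivo. Egr1 spanned the widest range among the genes that were never listed at 0, from 12.2 ± 3.92 FPKM (SD, n = 3 here and throughout) in cultured endothelium to 7613 ± 2733 in stroma in vivo. Egr3 spanned 1.11 ± 0.653 to 368 ± 87.1 between the same groups. Egr2 was listed at 0 in 2 of the 3 cultured endothelium libraries and reached 279 ± 116 in stroma in vivo. Klf6 spanned the least, with a ratio of 7.57 between its highest group mean (976 ± 192, stroma in vivo) and its lowest (129 ± 0.819, stroma alone).

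The order of the groups differed between genes. For Egr1, stroma in vivo lay above endothelium in vivo, then came stroma with HSPC and endothelium alone, whose libraries overlapped, then endothelium with HSPC, stroma alone, cultured stroma and cultured endothelium, each apart from the next. For Ier2 the in vivo groups came highest and overlapped, endothelium alone, stroma with HSPC and endothelium with HSPC formed an overlapping middle, and stroma alone, cultured endothelium and cultured stroma followed, each apart from the next. Klf2 was highest in endothelium in vivo, and the libraries of stroma in vivo, endothelium alone and endothelium with HSPC overlapped in turn below it. Klf4 was highest in endothelium in vivo, then in stroma with HSPC, then in endothelium alone and with HSPC, which overlapped, while stroma in vivo, cultured endothelium, cultured stroma and stroma alone came lowest and overlapped in turn. Nr4a2 alone among the 10 was highest in a cultured group, stroma alone at 189 ± 4.32 FPKM, with endothelium in vivo next and cultured endothelium lowest.

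**Figure D1:**
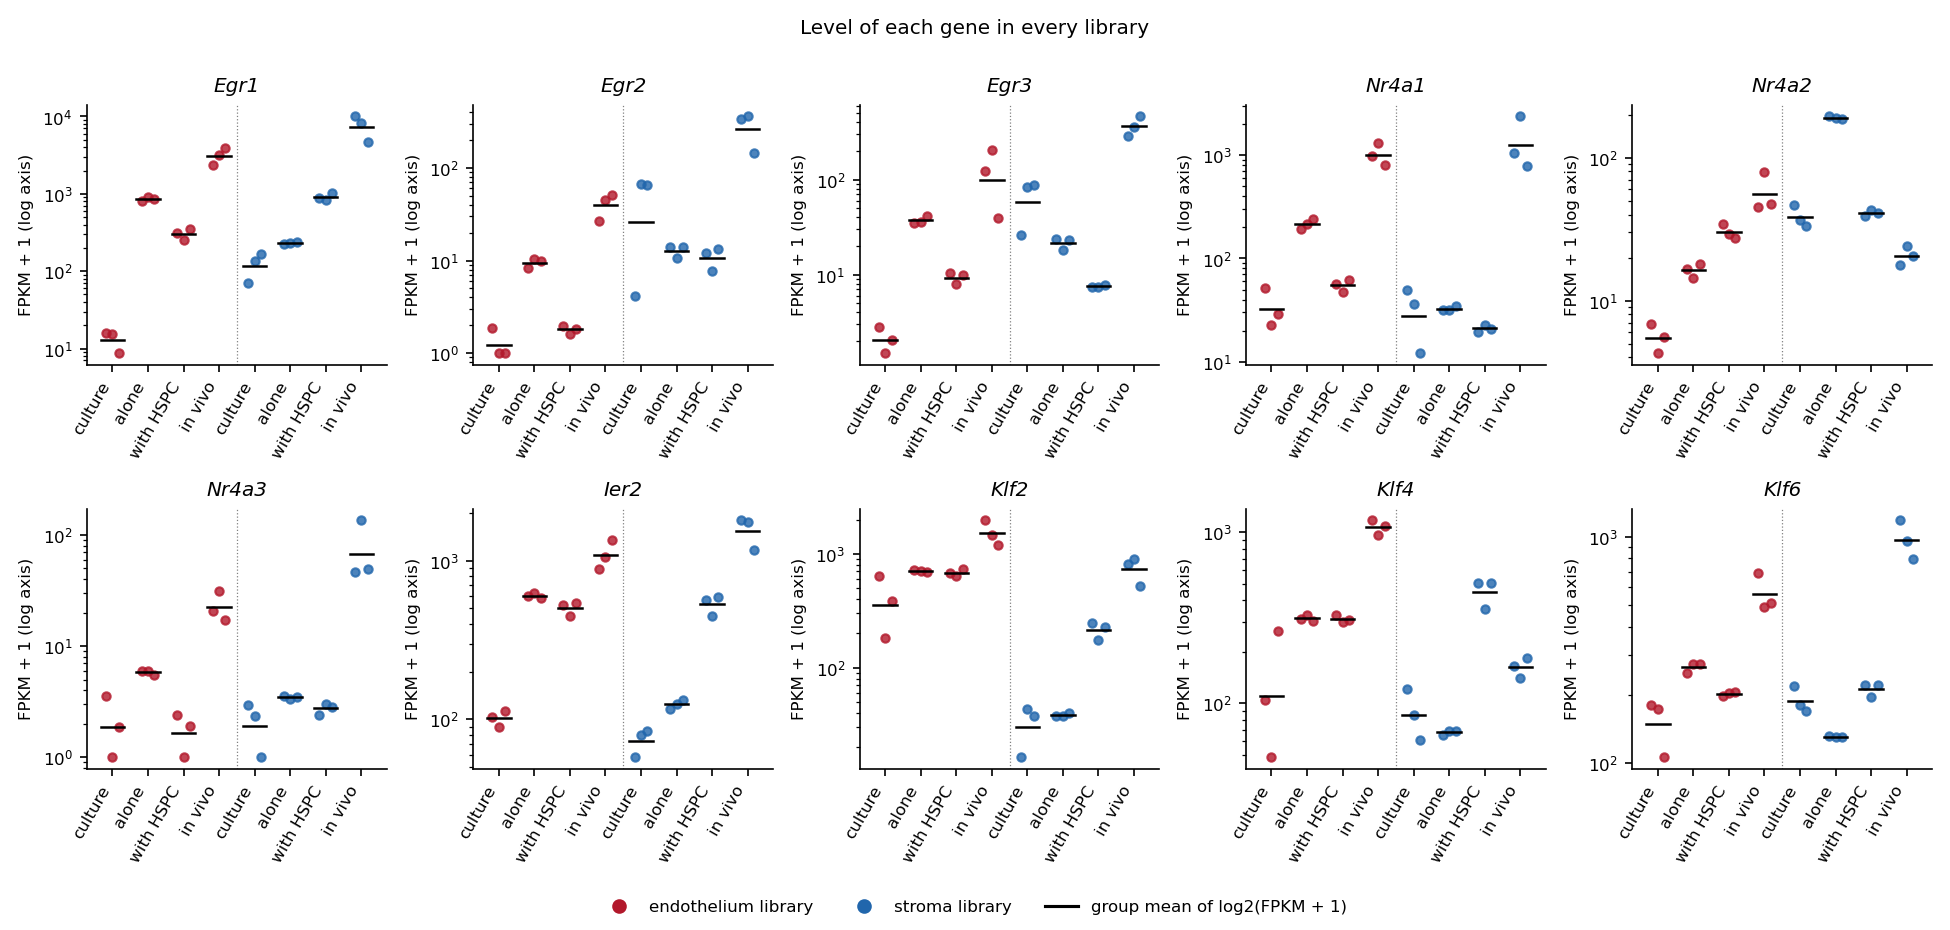
Level of each gene in every library, as FPKM plus 1 on a log axis, for the 4 endothelium groups (red, left of the dotted line) and the 4 stroma groups (blue). Points are libraries and bars are group means of log2(FPKM + 1), and Nr4a2 peaks in stroma alone, at 185 to 193 FPKM, whereas the other genes are highest in an in vivo group.

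The co-culture experiment asks what the presence of hematopoietic stem cells does to each niche cell. In endothelium with HSPC the Egr genes, Nr4a1 and Nr4a3 were lower than in endothelium alone, Nr4a2 was higher and Klf2 and Klf4 differed little. In stroma with HSPC, Egr1, Ier2, Klf2, Klf4 and Klf6 were higher and Egr3, Nr4a1 and Nr4a2 were lower. In endothelium 6 of the 10 genes fell and 1 rose, where 20.3% of all tested genes fell and 28.3% rose. In stroma 5 rose and 3 fell, where 25.6% of all tested genes rose and 35.4% fell. Calls rest on limma's moderated test of log2(FPKM + 1), at 0.05 after Benjamini-Hochberg adjustment across every tested gene. In bulk RNA, fewer cells of a type and less RNA per cell cannot be told apart.

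Egr1, the zinc-finger factor most used as a marker of recent stimulation, stood at 818, 904 and 846 FPKM in endothelium alone and at 307, 256 and 346 with HSPC. The groups did not overlap, and Egr1 fell by 1.51 ± 0.10 (SE) on the log2 scale in limma (adjusted p = 2.87e-07), a 2.83-fold lower mean. In stroma it stood at 226, 231 and 235 FPKM alone and at 886, 839.8 and 1024 with HSPC. All 3 libraries with HSPC lay above all 3 alone, and Egr1 rose by 1.98 ± 0.10 (adjusted p = 2.19e-08 in limma), a 3.97-fold higher mean. The ranking of the cell types reversed between the settings: Egr1 was 1.89 log2 units higher in endothelium than in stroma alone and its difference was -1.60 with HSPC.

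Egr2, which steers myelin and lymphocyte programmes elsewhere, went from 7.33, 9.40 and 8.91 FPKM in endothelium alone to 0.96, 0.63 and 0.84 with HSPC. It fell by 2.40 ± 0.20 (adjusted p = 1.72e-06 in limma), with no overlap. In stroma it stood at 13.01, 9.58 and 13.02 FPKM alone and 11.1, 6.64 and 12.47 with HSPC, which overlapped, and the log2 difference of -0.25 was not called (adjusted p = 0.305 in limma). Egr3, a close relative of Egr2, was the Egr gene that fell in both cell types. In endothelium it went from 34.1, 34.9 and 40.3 FPKM to 9.31, 6.95 and 8.91, and fell by 2.00 ± 0.12 (adjusted p = 1.53e-07 in limma). In stroma it went from 22.6, 17.0 and 21.9 FPKM to 6.37, 6.36 and 6.81, and fell by 1.51 ± 0.12 (adjusted p = 9.53e-07 in limma). So in stroma with HSPC, Egr1 and Egr3 moved in opposite directions in the same 3 libraries, and Egr3 fell while Egr1 rose.

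Among the Nr4a receptors, Nr4a1 and Nr4a3 fell and Nr4a2 rose in endothelium, while Nr4a1 and Nr4a2 fell in stroma. Nr4a1, or Nur77, stood at 191, 213 and 238 FPKM in endothelium alone and 56.0, 46.4 and 60.4 with HSPC, and fell by 1.96 ± 0.10 on the log2 scale (adjusted p = 4.18e-08 in limma). In stroma it stood at 30.35, 30.9 and 33.3 FPKM alone and 18.6, 21.55 and 19.9 with HSPC. It fell by 0.63 ± 0.10 (adjusted p = 0.000222 in limma), but was not called when all 8 groups shared 1 estimate of the spread (adjusted p = 0.330). Nr4a3, or Nor1, was sparse: 4.95, 4.98 and 4.45 FPKM in endothelium alone and 1.41, 0 and 0.89 with HSPC, and it fell by 1.80 ± 0.25 (adjusted p = 0.00011 in limma). In stroma it was between 1.41 and 2.59 FPKM in all 6 libraries and was not called (adjusted p = 0.264 in limma); without endothelium with HSPC replicate 2 the same difference, -0.34, had an adjusted p of 0.0321.

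Nr4a2, or Nurr1, moved in opposite directions in the 2 cell types, and against its relatives in endothelium. It stood at 193, 189 and 185 FPKM in stroma alone and at 38.2, 42.4 and 40.1 with HSPC, a 4.70-fold lower mean, and fell by 2.20 ± 0.09 on the log2 scale (adjusted p = 5.54e-09 in limma). The 3 stroma alone libraries held the highest Nr4a2 levels of all 24. In endothelium Nr4a2 stood at 15.6, 13.3 and 17.1 FPKM alone and 33.4, 28.4 and 26.3 with HSPC, and rose by 0.90 ± 0.09 (adjusted p = 1.24e-05 in limma). The 2 cell types thus differed 12.3-fold alone, with a log2 difference, endothelium minus stroma, of -3.55, and -0.45 with HSPC.

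Ier2 stood at 116, 123.2 and 131 FPKM in stroma alone and 566, 448 and 591 with HSPC, and rose by 2.10 ± 0.10 (adjusted p = 1.58e-08 in limma). In endothelium it stood at 596, 625 and 580.2 FPKM alone and at 524, 446 and 542 with HSPC. The groups did not overlap, but the difference of -0.26 ± 0.10 missed the threshold (adjusted p = 0.0549 in limma). It passed, between 0.00833 and 0.0467, under 8 of 20 alternatives, among them the loss of endothelium with HSPC replicate 3 or of stroma with HSPC replicate 2 or 3.

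The Klf genes rose in stroma. Klf2 went from 36.5, 36.2 and 38.5 FPKM alone to 247, 174 and 228 with HSPC, a rise of 2.50 ± 0.10 (adjusted p = 4.41e-09 in limma). Klf4 went from 64.5, 68.3 and 68.4 FPKM to 504, 354 and 502, a rise of 2.72 ± 0.11 and the largest of the 10 genes in stroma (adjusted p = 3.66e-09 in limma). Klf6 went from 129.8, 128 and 128 FPKM to 219.8, 194 and 219.5, a rise of 0.71 ± 0.05 (adjusted p = 4.29e-07 in limma). No library with HSPC overlapped a library alone for any of these genes.

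In endothelium the same factors were high with and without HSPC. Klf2 stood at 722, 709 and 694 FPKM alone and 672, 640.0 and 736 with HSPC, and Klf4 at 311, 327 and 303 alone and 326, 299 and 305 with HSPC. Both overlapped, and their log2 differences of -0.06 ± 0.10 and -0.02 ± 0.11 were not called (adjusted p = 0.719 and 0.962 in limma). Klf6 fell a little, from 248, 272 and 272 FPKM to 196, 202 and 205, by 0.39 ± 0.05 (adjusted p = 8.4e-05 in limma). That call was lost when all 8 groups shared 1 estimate of the spread (adjusted p = 0.181).

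**Figure D2:**
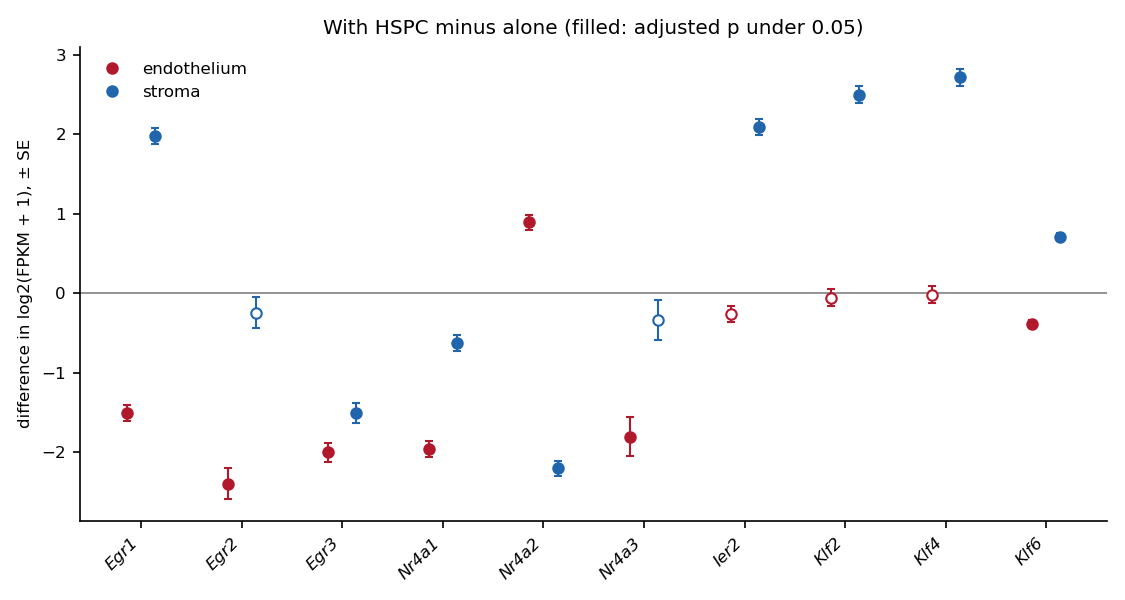
Difference with HSPC minus alone in log2(FPKM + 1), with its standard error, for each gene in endothelium (red) and stroma (blue); filled points passed an adjusted p under 0.05 in limma. Egr1 and Nr4a2 lie on opposite sides of 0 in the 2 cell types, and Klf2 and Klf4 lie near 0 in endothelium and above 2 in stroma.

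The response to HSPC differed between the cell types for all 10 genes in the test of the difference itself, where 57.0% of all tested genes were called. The endothelium effect minus the stroma effect was -3.49 ± 0.14 for Egr1 (adjusted p = 1.29e-08 in limma), -2.74 ± 0.15 for Klf4, -2.56 ± 0.15 for Klf2, -2.35 ± 0.14 for Ier2 and 3.10 ± 0.13 for Nr4a2. Nr4a2 was the gene with the positive difference. The smallest was that of Egr3, -0.49 ± 0.17 (adjusted p = 0.0291 in limma), which lost its call without any 1 of 4 libraries, endothelium alone replicate 3, endothelium with HSPC replicate 2, stroma alone replicate 2 or stroma with HSPC replicate 3 (-0.37 to -0.47, adjusted p from 0.0605 to 0.0722). Egr2, Egr3, Nr4a1 and Nr4a3 were not called when all 8 groups shared 1 estimate of the spread (adjusted p = 0.163, 0.713, 0.151 and 0.156 in limma). Egr1, Nr4a2, Ier2, Klf2, Klf4 and Klf6 kept theirs under every alternative run.

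Markers of blood cells and of stroma moved with the HSPC groups in both cell types. Of 12 pan-hematopoietic markers, 9 were at 0 in all endothelium alone libraries and none was at 0 in all 3 with HSPC, and their sum went from 70.5 to 76.3 FPKM alone to 207 to 255. In stroma the sum went from 0.48 to 1.57 FPKM, with 10 of 12 at 0, to 32.4 to 45.4. The sum of 8 HSPC markers went from 6.90 to 13.8 FPKM to 215 to 287 in endothelium and from 2.66 to 3.07 to 70.9 to 73.9 in stroma. Mpo, an enzyme of young myeloid cells, was at 0 in all 6 libraries alone, at 170 to 236 FPKM in endothelium with HSPC and at 61.0 to 63.0 in stroma with HSPC. Ptprc, the pan-leukocyte antigen CD45, stayed at 2.06 FPKM or less. Monocyte and macrophage markers summed to 193 to 211 FPKM in endothelium alone and 453 to 484 with HSPC. All 7 tested ones rose there, where 28.3% of all tested genes rose. In stroma their sum was 15.8 to 19.6 FPKM alone and 42.9 to 51.6 with HSPC. Of the 7 tested in stroma 3 rose and 2 fell, where 25.6% of all tested genes rose and 35.4% fell. Stromal markers summed to 585 to 688 FPKM in endothelium alone and 261 to 272 with HSPC. There 6 of 9 tested ones fell, with a median difference of -1.22, where 20.3% of all tested genes fell. In stroma itself 6 of 9 also fell, with a median of -0.62, where 35.4% of all tested genes fell. Their sums there overlapped, at 69919 to 75349 FPKM alone and 66229 to 74469 with HSPC. The part of RNA from other cells in the changes of the 10 genes was not tested. Endothelial markers summed to 46.4 to 78.6 FPKM in stroma with HSPC, against 31.1 to 33.2 alone, and Cdh5, the endothelial cadherin, was at 0, 1.17 and 1.56.

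Other immediate-early genes were read from a list of 30 that holds none of the 10. In endothelium with HSPC 14 of them fell and 6 rose, with a median difference of -0.29 against 0.02 over all tested genes. In stroma 24 rose and 3 fell, with a median of 1.38 against -0.04. Over all tested genes 20.3% fell and 28.3% rose in endothelium, and 25.6% rose and 35.4% fell in stroma. Fos, an AP-1 subunit, went from 1074 ± 72.0 to 124.5 ± 26.4 FPKM in endothelium, where it fell by 3.12 ± 0.13 (adjusted p = 8.51e-09 in limma), and from 57.9 ± 3.01 to 755 ± 71.5 in stroma, a rise of 3.68 ± 0.13 (adjusted p = 1.49e-09 in limma). Fosb fell by 4.18 ± 0.18 in endothelium and rose by 4.60 ± 0.18 in stroma, the largest change of the list in each. Zfp36, which destabilises early messages, fell by 1.98 in endothelium and rose in stroma, from 141 ± 6.15 to 399 ± 31.8 FPKM. Dusp1, a phosphatase that switches MAP kinases off, rose by 3.08 in stroma, from 22.1 ± 3.86 to 192 ± 7.44 FPKM. Fosl2 and Ier3 were among the 6 that rose in endothelium, by 1.66 and 1.68. Of the 11 tested AP-1 genes, 9 of which are also in the early-gene list, 10 rose in stroma, and 5 fell and 1 rose in endothelium. All of these comparisons share their alone libraries with those of the 10 genes.

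**Figure D3:**
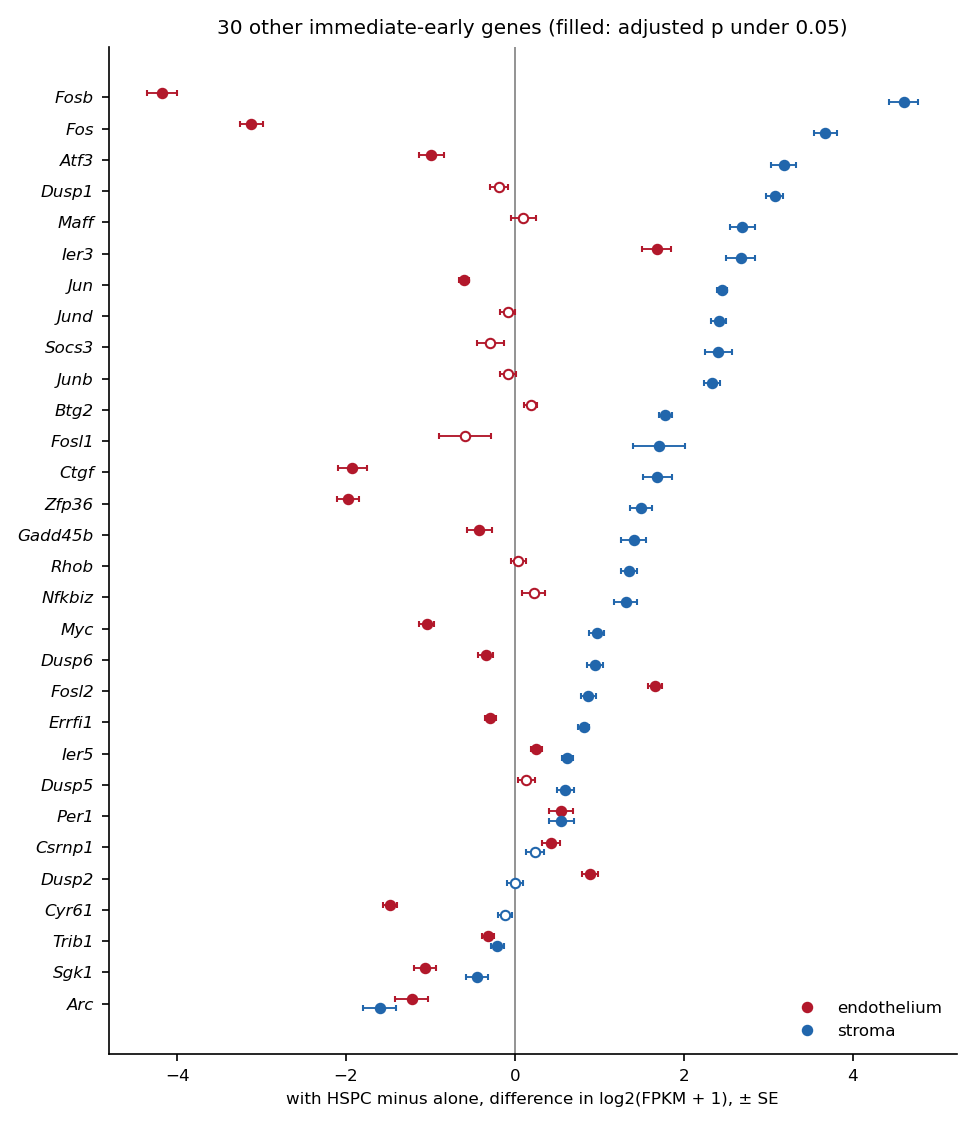
Difference with HSPC minus alone in log2(FPKM + 1), with its standard error, for 30 other immediate-early genes in endothelium (red) and stroma (blue), ordered by the stroma value; filled points passed an adjusted p under 0.05 in limma. Fosb and Fos lie lowest in endothelium, at -4.18 and -3.12, and highest in stroma, at 4.60 and 3.68.

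Of 15 further genes of the Egr and Klf family, 2 rose and 7 fell in endothelium with HSPC, and 9 rose and 4 fell in stroma. The shares of all tested genes were 28.3% and 20.3% in endothelium and 25.6% and 35.4% in stroma, risen and fallen. Klf10, a TGF-beta-induced early factor, rose in both, from 237 ± 7.0 to 781 ± 27.1 FPKM in endothelium (1.72 ± 0.04, adjusted p = 1.8e-10 in limma) and from 97.1 ± 1.26 to 230 ± 12.7 in stroma (1.24 ± 0.04). Klf15, Klf12 and Klf13 rose by 1.52, 1.26 and 1.07 in stroma. Egr4 was listed at 0 in endothelium with HSPC and at 1.38 ± 0.350 FPKM alone.

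Of 15 upstream regulators of these genes, 5 rose and 5 fell in endothelium with HSPC, where 28.3% of all tested genes rose and 20.3% fell. Another 3 rose and 6 fell in stroma, where 25.6% of all tested genes rose and 35.4% fell, so the stroma counts lie near the background. Srf fell by 0.52 in endothelium and fell by 0.47 in stroma. Crem, a CRE-binding factor, rose by 0.75 in endothelium, Mef2a fell by 0.48 there, and Mef2c fell by 0.83 in stroma. Nab2 rose by 0.35 in stroma (adjusted p = 0.000701 in limma), to 168 ± 19.0 FPKM, and neither Nab gene was called in endothelium.

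Of 12 genes that Klf2 and Klf4 are known to regulate in endothelium, 4 rose and 6 fell in stroma with HSPC, against 6 and 4 in endothelium. Among all tested genes 25.6% rose and 35.4% fell in stroma, and 28.3% rose and 20.3% fell in endothelium. Hmox1, heme oxygenase, rose by 1.80 in stroma, from 563 ± 18.5 to 1966 ± 97.8 FPKM. S1pr1, a sphingosine phosphate receptor, fell by 2.50 there, Aqp1 fell by 1.94 and Vcam1 fell by 1.80. Nos3, the endothelial nitric oxide synthase, stood at 1435 to 1598 FPKM in the 6 endothelium libraries of this experiment and at 1.11 or less in the 6 stroma libraries.

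Setting the in vivo libraries beside the first culture shows the genes in their tissue against cells grown out of it. In endothelium all 10 genes were called higher in vivo, where 23.6% of all tested genes were called higher. Their libraries did not overlap, but the share of all genes without overlap was not computed. In stroma 9 were called, where 55.4% of all tested genes were called in either direction: 8 were higher and Nr4a2 was lower. Klf4 was not called in stroma.

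Egr1 stood at 14.7, 14.2 and 7.68 FPKM in cultured endothelium and at 2365, 3166 and 3931 in vivo, a 259-fold higher mean and a rise of 7.92 ± 0.39 on the log2 scale (adjusted p = 1.84e-07 in limma). In stroma it stood at 68.3, 133 and 164 FPKM in culture and 10005, 8198 and 4635 in vivo, a rise of 5.97 ± 0.39 (adjusted p = 8.11e-07 in limma). Every in vivo library lay far above every cultured library of the same cell type. Egr3 rose by 5.61 ± 0.61 in endothelium, from 1.79, 0.49 and 1.04 FPKM to 122.9, 202 and 38.5, and by 2.65 ± 0.61 in stroma, from 25.0, 83.3 and 87.5 to 287, 357 and 460.1 (adjusted p = 3.94e-05 and 0.00421 in limma). Egr2 rose from 0.87, 0 and 0 FPKM to 25.5, 44.2 and 50.6 in endothelium and from 3.19, 65.3 and 64.6 to 334, 358 and 145 in stroma. Cultured stroma replicate 1 stood apart for Egr2, far below the other libraries of its group.

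Nr4a1 rose in both cell types. It went from 50.9, 21.65 and 27.7 FPKM to 978, 1307 and 810.5 in endothelium (4.97 ± 0.56, adjusted p = 4.87e-05 in limma) and from 48.7, 35.2 and 11.1 to 1041, 2370.2 and 777 in stroma (5.48 ± 0.56, adjusted p = 1.99e-05 in limma). Nr4a3 rose from 2.55, 0 and 0.87 FPKM to 19.8, 30.02 and 16.2 in endothelium and from 1.94, 1.36 and 0 to 45.1, 134 and 48.4 in stroma. Nr4a2 differed from both: it rose 12.3-fold in endothelium, from 5.86, 3.28 and 4.58 FPKM to 43.9, 78.2 and 46.7 (3.34 ± 0.26, adjusted p = 4.13e-06 in limma). In stroma it was 1.92-fold lower in vivo, at 16.7, 23.05 and 19.4 FPKM against 45.35, 35.8 and 32.45 in culture. It fell by 0.91 ± 0.26 (adjusted p = 0.0133 in limma), a call that was lost without stroma in vivo replicate 1 (-0.80, adjusted p = 0.0536) and with a separate weight for each group (adjusted p = 0.0714).

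Ier2 rose 10.9-fold in endothelium, from 103, 88.6 and 111 FPKM to 887, 1055 and 1355, and 21.6-fold in stroma, from 56.7, 78.5 and 83.04 to 1794, 1745 and 1175. Klf2 rose from 639, 181 and 384 FPKM to 1968, 1459.8 and 1202 in endothelium, by 2.09 ± 0.48 (adjusted p = 0.00423 in limma). Without the 3 libraries that carry Xist, which leaves 1 cultured endothelium library, the Klf2 difference was 1.24 (adjusted p = 0.0955). In stroma Klf2 rose 23.9-fold, from 15.3, 42.1 and 36.3 FPKM to 817, 904 and 521 (4.62 ± 0.48, adjusted p = 2.29e-05 in limma). Klf4 rose from 104, 47.5 and 263 FPKM to 1173, 958 and 1086 in endothelium (3.28 ± 0.49, adjusted p = 0.000315 in limma). In stroma Klf4 stood at 119.6, 84.4 and 60.4 FPKM in culture and 164, 139.8 and 184 in vivo, which did not overlap, and its difference of 0.92 ± 0.49 was not called (adjusted p = 0.134 in limma). It was called under 5 alternatives, among them the fit without the 3 Xist libraries (0.68, adjusted p = 0.0147) and the loss of cultured endothelium replicate 2 or 3 (adjusted p = 0.0404 and 0.0265). Klf6 rose 3.70-fold in endothelium and 5.21-fold in stroma, to 561 ± 112 and 976 ± 192 FPKM.

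**Figure D4:**
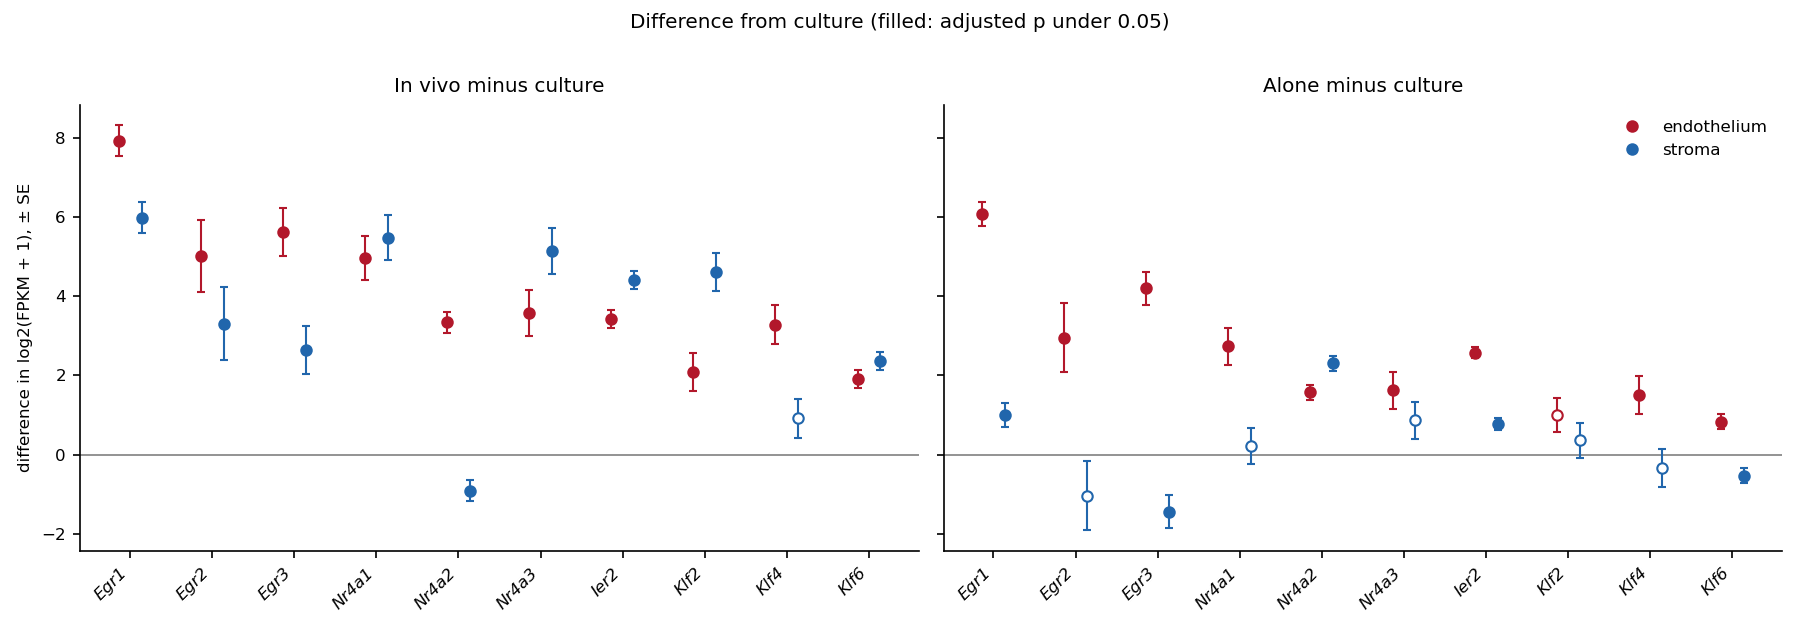
Difference from the first culture in log2(FPKM + 1), with its standard error, for in vivo libraries (left) and for the alone libraries of the co-culture experiment (right), in endothelium (red) and stroma (blue); filled points passed an adjusted p under 0.05 in limma. In vivo, Nr4a2 in stroma is the value below 0, at -0.91, and Egr1 has the largest value in each cell type of the left panel.

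The in vivo rise differed between the cell types for 6 of the 10 genes, where 33.5% of all tested genes were called. Endothelium minus stroma was 4.25 ± 0.37 for Nr4a2 (adjusted p = 1.24e-05 in limma) and -2.53 ± 0.68 for Klf2 (adjusted p = 0.0159 in limma), and both kept their calls under every alternative run. The other 4 calls did not. Egr1 (1.95, adjusted p = 0.0208) lost its call without cultured stroma replicate 2, endothelium in vivo replicate 3 or stroma in vivo replicate 3 (adjusted p from 0.0503 to 0.0549), and Klf4 (2.35, adjusted p = 0.024) without endothelium in vivo replicate 1 or 3 or stroma in vivo replicate 1 or 2 (0.0507 to 0.0597). Egr3 (2.97, adjusted p = 0.0226) lost it without any of 6 libraries, cultured stroma replicates 2 and 3 and replicates 1 and 2 of both in vivo groups (0.0506 to 0.0575). Ier2 (-0.99, adjusted p = 0.032) lost it without any of 6 libraries, cultured endothelium replicates 1 and 3 and replicates 1 and 2 of both in vivo groups (0.0515 to 0.0821). Without the 3 Xist libraries Egr1 was at 1.38 (adjusted p = 0.158 in limma), Egr3 at 2.21 (0.195) and Ier2 at -1.13 (0.0787), none of them called. A separate weight for each group also ended these 3 calls (adjusted p = 0.0842, 0.127 and 0.170). Egr2 was not called (1.70, adjusted p = 0.345), but was without cultured stroma replicate 1 (3.02, adjusted p = 0.00305).

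Other immediate-early genes were higher in vivo too: 26 of 30 rose and 1 fell in endothelium, with a median of 2.57 against -0.09 over all tested genes, and 23 rose and 1 fell in stroma, with a median of 2.76 against -0.15. Fos was at 6.22 ± 0.227 FPKM in cultured endothelium and at 5148 to 10249 in vivo, a rise of 9.95 on the log2 scale, and rose by 10.40 in stroma. Fosl1, an AP-1 subunit, was the gene that fell: it fell by 2.62 in endothelium and fell by 5.61 in stroma. Of the other Egr and Klf genes, 8 of 14 rose in endothelium and 9 of 14 in stroma, and none fell. Over all tested genes 23.6% were called higher in endothelium, and 55.4% were called in either direction in stroma. Of those calls in stroma 43.3% were higher in vivo, so the rises there are not to be set against the whole 55.4%. Klf11 rose by 2.18 and 2.07, and Klf9, a glucocorticoid-responsive factor, by 2.04 in stroma.

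Some heat shock genes and markers of blood cells also moved with the in vivo groups. Of 10 heat shock genes known from dissociated cells, 3 rose and 2 fell in endothelium, where 23.6% of all tested genes rose. There 7951 of 14904 tested genes were called in either direction. In stroma 5 rose and 2 fell, where 55.4% of all tested genes were called in either direction. The count of rises in endothelium lies near the 23.6%. The 55.4% covers both directions, and 43.3% of those calls were higher in vivo, so the 5 rises are not to be set against the whole of it. The medians of the list, endothelium then stroma, were 0.28 and 0.32 against -0.09 and -0.15 over all tested genes. Hspa1a, the inducible Hsp70, was at 374 to 571 FPKM in endothelium in vivo against 19.0 to 36.3 in culture, and at 83.8 to 189 in stroma in vivo. The sum of the 10 genes was 3224 to 3745 FPKM in endothelium in vivo against 1916 to 2760 in culture, and 2920 to 4552 in stroma in vivo against 2074 to 3316. Pan-hematopoietic markers summed to 214 to 240 FPKM in endothelium in vivo and 181 to 242 in stroma in vivo, against 103 to 175 and 24.5 to 56.0 in culture. Erythroid markers, at 2.54 FPKM or less in culture, summed to 676 to 1321 in endothelium in vivo and to 37356 to 45086 in stroma in vivo, and Klf1, the erythroid member of the Klf family, was at 14.6 ± 4.61 and 114 ± 9.73. The part of handling and of blood cells in the in vivo levels of the 10 genes was not tested.

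Of the 15 upstream regulators 4 rose and 3 fell in endothelium in vivo, where 23.6% of all tested genes were called higher. In stroma 2 rose and 7 fell, where 55.4% of all tested genes were called in either direction and 43.3% of those calls were higher in vivo. Srf rose by 0.88 in endothelium and Elk3, a repressor of Srf targets, fell by 2.37 in stroma. Nab2 rose by 0.90 in endothelium and fell by 0.96 in stroma, from 351 ± 89.1 to 180 ± 46.8 FPKM. Of the 12 endothelial targets of Klf2 and Klf4, 5 rose and 3 fell in endothelium in vivo. Thbd, thrombomodulin, a known Klf2 target, rose by 1.81, whereas Vcam1 and Sele, adhesion molecules that Klf2 is known to restrain, rose by 5.58 and 5.15.

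The alone libraries differed from the culture libraries, here called the first culture, though the labels give no order in time. Titles of the first culture name neither partner cells nor the co-culture experiment. Experiment and setting therefore cannot be told apart in this comparison, and the 3 libraries with Xist are all in the first culture. In endothelium 9 of the 10 genes were higher alone than in the first culture, where 8.78% of all tested genes were called higher. Egr1 rose 70.2-fold, to 856 ± 44.0 FPKM (6.07 ± 0.30, adjusted p = 1.19e-06 in limma), Egr3 rose 32.9-fold and Ier2 5.95-fold. Nr4a1, Nr4a2 and Klf6 rose 6.40-fold, 3.35-fold and 1.74-fold. These 6 kept their calls under every alternative run.

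The remaining calls in endothelium alone were fragile. Egr2 (2.95, adjusted p = 0.0353) lost its call without either cultured endothelium library that read 0 (replicates 2 and 3), or without any alone library of either cell type (adjusted p up to 0.102). Without the 3 Xist libraries the Egr2 difference was 2.35 (adjusted p = 0.218 in limma). Nr4a3 (1.62, adjusted p = 0.0319) lost it without the same libraries (up to 0.095) and with a pseudocount of 0.1 (adjusted p = 0.118). Klf4 (1.51, adjusted p = 0.0474) lost it without any of 10 libraries, cultured endothelium replicates 1 and 2, cultured stroma replicates 2 and 3 and all 6 alone libraries (up to 0.126). Klf2 was not called (1.00, adjusted p = 0.123), and was called without cultured endothelium replicate 1 (1.42, adjusted p = 0.0268), the library with the highest Klf2 of its group.

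In stroma 3 genes rose and 2 fell, where 16.0% of all tested genes were called higher and 17.8% lower. Nr4a2 rose 4.98-fold, from 37.9 ± 6.69 to 189 ± 4.32 FPKM (2.30 ± 0.19, adjusted p = 1.27e-05 in limma), and Ier2 rose 1.70-fold (0.77 ± 0.14, adjusted p = 0.00228 in limma), and both kept their calls under every alternative run. The calls of Egr1 (1.01, adjusted p = 0.0277), Egr3 (-1.44, adjusted p = 0.0247) and Klf6 (-0.53, adjusted p = 0.0477) were lost without any 1 of the 3 stroma alone libraries. They were also lost without cultured stroma replicate 1 for Egr1 (0.64, adjusted p = 0.0506), without replicate 2 or 3 for Egr3 (-1.17 and -1.13, adjusted p = 0.0892 and 0.0836) and without any cultured stroma or endothelium alone library for Klf6 (-0.42 to -0.60, adjusted p up to 0.117). Without the 3 Xist libraries Egr3 was not called (-1.13, adjusted p = 0.0751 in limma), while Klf4 (-0.58, adjusted p = 0.0135) and Nr4a3 (0.40, adjusted p = 0.0446) were. Egr2, not called, fell by 2.37 (adjusted p = 0.000175 in limma) without cultured stroma replicate 1. Of the 30 other immediate-early genes, 18 rose and 3 fell in endothelium alone and 5 rose and 13 fell in stroma alone. Over all tested genes 8.78% were called higher in endothelium, where 3267 of 14071 were called in either direction. In stroma 16.0% were called higher and 17.8% lower. The medians of the list were 1.44 and -0.35, against -0.11 and -0.01 over all tested genes. Of 10 heat shock genes none was called in endothelium alone and 3 fell in stroma alone.

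Between the cell types, Klf2 was called higher in endothelium in 3 of the 4 settings. It was 12.8-fold higher in endothelium than in stroma in culture (3.58 ± 0.48, adjusted p = 0.000238 in limma), 19.1-fold higher alone (4.22, adjusted p = 3.03e-12) and 1.67 log2 units higher with HSPC. In vivo the libraries did not overlap, at 1202 to 1968 against 521 to 904 FPKM, but the difference of 1.05 missed the threshold (adjusted p = 0.0941 in limma). It passed under 4 alternatives, among them the loss of cultured endothelium replicate 2 (adjusted p = 0.0485). In culture 1 gene, Klf2, was higher in endothelium and 4 were lower, where 20.1% of all tested genes were called higher and 18.6% lower, 38.7% in all. The 4 were Egr1 (-3.18 ± 0.39), Egr2 (-4.42 ± 0.91), Egr3 (-4.83 ± 0.61) and Nr4a2 (-2.82 ± 0.26). Egr2 lost its call without the 3 Xist libraries (-3.16, adjusted p = 0.137 in limma), and the other 3 kept theirs under every alternative run.

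In vivo 7 genes were called, where 49.3% of all tested genes were, 2 of them higher in endothelium (25.0% of all genes) and 5 lower (24.2%). Nr4a2 (1.43 ± 0.26, adjusted p = 0.00103 in limma) and Klf4 (2.72 ± 0.49, 6.60-fold, adjusted p = 0.000968 in limma) were higher in endothelium and kept their calls under every alternative run. Egr1 (-1.23), Egr2 (-2.72), Egr3 (-1.86), Nr4a3 (-1.60) and Klf6 (-0.80) were lower, at adjusted p from 0.0163 to 0.0424, and each lost its call without at least 3 of the libraries in turn. These were, for Klf6, endothelium in vivo replicates 2 and 3 and stroma in vivo replicate 1 (up to 0.0689), and for Egr3 endothelium replicate 3 and stroma replicates 2 and 3 (up to 0.1004). For Egr1 they were endothelium replicates 1 and 2 and stroma replicates 1 and 2 (up to 0.0927), and for Egr2 all 3 endothelium replicates and stroma replicates 1 and 2 (up to 0.095). With quantile normalization Egr1 was at -0.45 (adjusted p = 0.323 in limma), a smaller difference that was not called, and with a pseudocount of 0.1 Egr2 and Nr4a3 were not called (adjusted p = 0.0846 and 0.336). For Nr4a3 the libraries were all 3 endothelium replicates, stroma replicates 2 and 3 and 2 cultured libraries, endothelium replicate 3 and stroma replicate 2 (up to 0.167). Ier2 (-0.51, adjusted p = 0.0778) passed without endothelium in vivo replicate 3 or stroma in vivo replicate 3 (adjusted p = 0.042 and 0.0263).

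The alone and HSPC settings differed between the cell types for most genes of the genome, 83.3% and 85.1% of those tested, so the counts of the 10 genes, 9 and 8, lie near the background. Alone, 8 were higher in endothelium, where 42.0% of all tested genes were, and Nr4a2 was lower, where 41.3% were. With HSPC 3 were higher and 5 lower, where 46.6% and 38.6% of all tested genes were. Nr4a1 (1.39), Klf2 (1.67) and Egr3 (0.31) were higher in endothelium, and Egr1 (-1.60), Egr2 (-2.58), Nr4a2 (-0.45), Nr4a3 (-0.73) and Klf4 (-0.53) were lower. The Egr3 value with HSPC lost its call without endothelium with HSPC replicate 1 or 3 or stroma with HSPC replicate 1 or 2 (0.24 to 0.30, adjusted p from 0.0658 to 0.116). Egr2 alone was not called (-0.43, adjusted p = 0.0629), and passed without stroma alone replicate 2 or stroma with HSPC replicate 2 or 3 (adjusted p from 0.0106 to 0.0467). With all 8 groups in 1 fit the calls of Egr3 and Nr4a3 alone (adjusted p = 0.143 and 0.190) and of Egr3, Nr4a2, Nr4a3 and Klf4 with HSPC (0.596, 0.0556, 0.185 and 0.232) were lost. Klf6 and Ier2 with HSPC were not called either (-0.07 and -0.08), and both passed without stroma with HSPC replicate 2 (-0.13 and -0.20, adjusted p = 0.0145 and 0.0322). Nab2, the inducible Egr co-repressor, was lower in endothelium in all 4 settings, with log2 differences of -3.41 in culture, -1.55 in vivo, -1.58 alone and -1.86 with HSPC, all called in limma.

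The make-up of each family changed between settings. Within the Egr genes, Egr1 made up 98.2% ± 0.22 of the summed FPKM of Egr1, Egr2 and Egr3 in stroma with HSPC and 56.6% ± 12.46 in cultured stroma, where Egr3 made up 27.7% ± 1.83. Within the Nr4a genes, Nr4a1 made up 91.4% ± 0.95 in endothelium alone and 64.2% ± 4.10 with HSPC. Stroma was the opposite in the co-culture experiment: Nr4a2 made up 84.7% ± 0.88 alone and 64.9% ± 0.70 with HSPC. In vivo Nr4a1 led in both cell types, with 93.0% ± 0.79 in endothelium and 93.4% ± 1.26 in stroma.

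Within the Klf genes, endothelium and stroma kept different leaders. Klf2 made up between 48.2% (in vivo) and 57.1% (with HSPC) in every endothelium group. In stroma Klf6 led in culture (61.2%), alone (55.3%) and in vivo (51.8%), but with HSPC Klf4 led with 51.3% ± 1.99, up from 28.8% ± 0.73 alone. In stroma in vivo Klf4 made up 8.95% ± 2.86, the lowest of its 8 group shares. These shares are descriptions and were not tested.

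**Figure D5:**
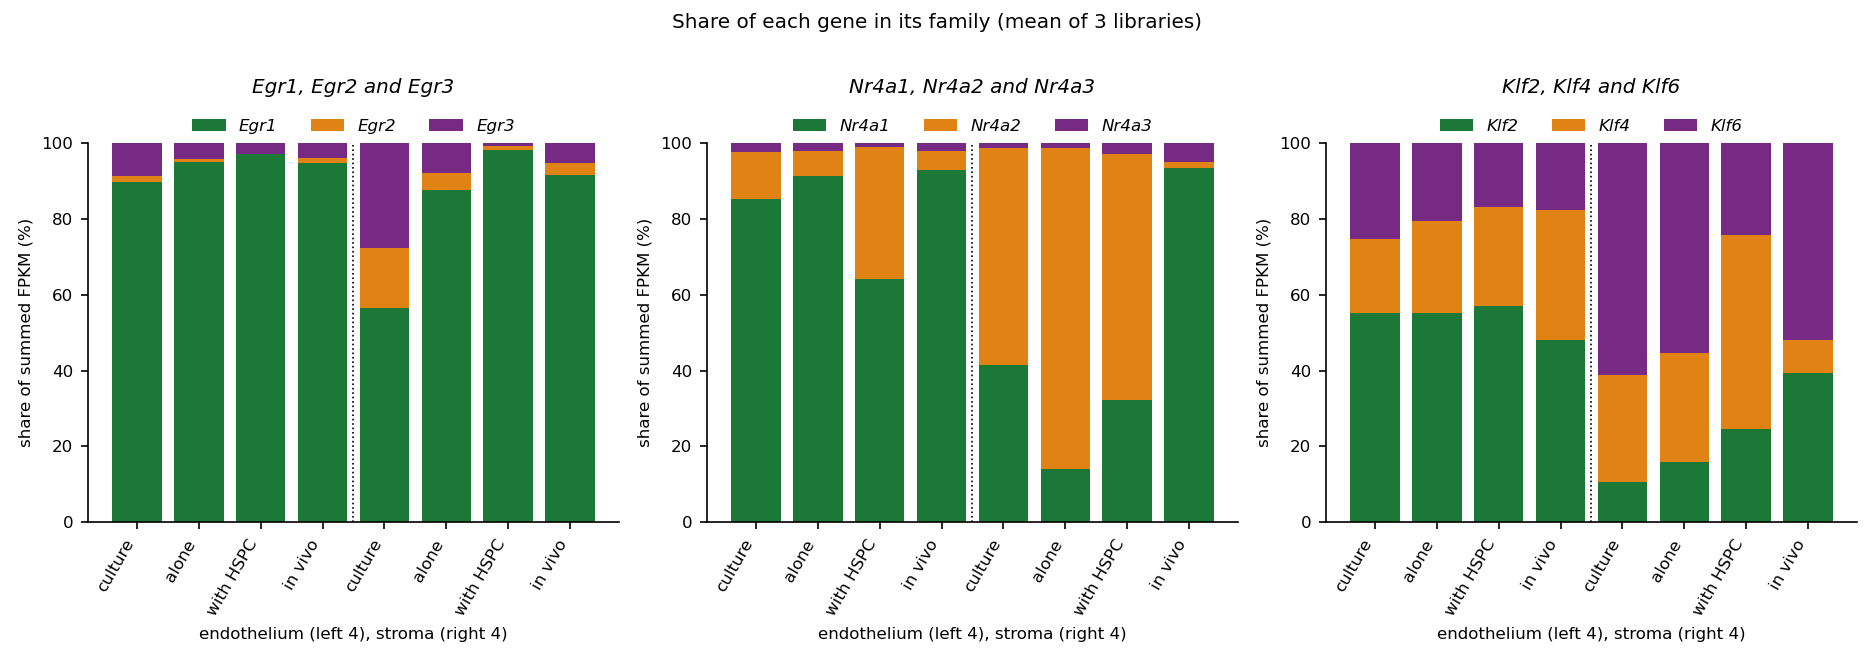
Share of each gene in the summed FPKM of Egr1, Egr2 and Egr3 (left), Nr4a1, Nr4a2 and Nr4a3 (middle) and Klf2, Klf4 and Klf6 (right), in percent, as means of 3 libraries per group, with endothelium left and stroma right of the dotted line. Nr4a2 takes the largest mean share in the 3 cultured stroma groups, 57.1%, 84.7% and 64.9%, and Nr4a1 in the other 5 groups. The 57.1% of the first culture (SD 15.2) was uneven between libraries. Nr4a1 and Nr4a2 were at 48.7 and 45.35 FPKM in replicate 1, 35.2 and 35.8 in replicate 2, and 11.1 and 32.45 in replicate 3.

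Over the 24 libraries, the log2 levels of the 10 genes formed 45 pairs with Pearson r from -0.43 to 0.92 and a median of 0.61. The highest was that of Nr4a1 with Nr4a3. The 5 pairs below 0 all held Nr4a2, whose r with the other genes had a median of -0.01 and was at most 0.30, with Egr1. The points are libraries of 8 groups that share their setting, so these values describe the groups and carry no test. Among 14007 other genes, those nearest to Egr1 were Junb (r = 0.956) and Zfp36 (0.951), and those nearest to Ier2 were Ppp1r15b (0.972), which reverses the translation block of stressed cells, and Fos (0.955). Klf2 lay nearest to Srgn (0.925), the proteoglycan of blood cell and endothelial granules, and Btg2 (0.924), an antiproliferative early gene. Nr4a1 lay nearest to Akap8 (0.952) and Msl2 (0.941), Nr4a3 to Tha1 (0.948) and Dnajb13 (0.925), and Klf6 to Irx3 (0.941) and E2f4 (0.935). Egr2 lay nearest to St6galnac4 (0.942) and Agmo (0.923), Egr3 to Agmo (0.892) and Ing5 (0.885), and Nr4a2 to Fuz (0.917) and Tbc1d17 (0.866).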

How the data were processed

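PolyA RNA from 24 libraries was extracted with Trizol and sequenced as paired reads, per the labels' protocols. The authors deposited 1 table of FPKM values per library, in a unit already scaled by transcript length and library size, made with TopHat and Cufflinks on mouse build mm9, per the submitters' processing notes; tool versions are not given in the sources used here. Reads and counts were not used here, so depth and counting error are unknown. FPKM favours no gene by length, but 1 very abundant gene lowers the rest.

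Groups came from the labels, and the 3 libraries of a group entered as replicates. The deposited FPKM were changed to log2(FPKM + 1), a pseudocount of 1 that shrinks the fold of low genes. Genes at FPKM 1 or more in at least 3 libraries of a fit were tested with limma 3.58.1 in R 4.3.3 (intensity trend, Benjamini-Hochberg over all tested genes, call at adjusted p under 0.05). There were 3 fits of 12 libraries (culture with in vivo, alone with HSPC, culture with alone) and 12 comparisons, 2 of them differences between cell types. The procedure was tested on simulated data. Fold values are ratios of mean FPKM.

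The genes named are the 10 genes, up to 4 called genes with the largest differences of each of 14 other lists per comparison or those needed to describe a level, and for each of the 10 the 2 other genes with the highest Pearson r (those of Klf4 are not reported here). The members and lists were chosen with earlier results of these data known. Alternatives changed the pseudocount (0.1), filter, scaling, groups in the fit, weights and replicate block, or left out 1 library; leaving out the 3 libraries with Xist was chosen after seeing the data. Promoters came from RefSeq, GRCm38.p6, searched on both strands. Figures were drawn with matplotlib 3.10.9.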

Additional observations from a re-analysis of the deposited data

Results flagged for a closer look

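The effect of HSPC, as a log2 difference in endothelium minus that in stroma, differed between the cell types for all 10 genes in limma's test of the difference itself (n = 3 libraries per group). That test called 57.0% of all tested genes. Egr2, Egr3, Nr4a1 and Nr4a3 were not called with all 8 groups in 1 fit, and 6 genes kept their calls under every alternative run. It was -3.49 for Egr1, which was lower with HSPC in endothelium and higher in stroma. It was -2.15 for Egr2 and -0.49 for Egr3, which were lower with HSPC in both cell types by their means. For the nuclear receptors it was -1.33 for Nr4a1, 3.10 for Nr4a2 and -1.47 for Nr4a3, so Nr4a2 was the gene that went the other way. It was -2.35 for Ier2, -2.56 for Klf2, -2.74 for Klf4 and -1.10 for Klf6.

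The in vivo minus culture effect differed between the cell types for 6 genes, where 33.5% of all tested genes were called. Nr4a2 and Klf2 kept their calls under every alternative run and Egr1, Egr3, Ier2 and Klf4 did not. Endothelium minus stroma was 4.25 for Nr4a2, which was higher in vivo in endothelium and lower in vivo in stroma. It was 2.97 for Egr3, 2.35 for Klf4 and 1.95 for Egr1, whose rise was larger in endothelium. It was -2.53 for Klf2 and -0.99 for Ier2, whose rise was larger in stroma.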

How the results depend on the processing

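Of 120 log2 differences (10 genes in 12 comparisons), 76 kept their side of the threshold under all alternatives run, and no called one changed sign. Of the 120, 10 that were not called did, some of them among the 76, and none of the 10 was called with the other sign. Nr4a3 between the cell types in culture was 0.19 with quantile normalization, 0.43 without the 3 Xist libraries and -0.49 to 0.43 with 1 library left out. Nr4a1 in stroma alone minus culture was -0.39 without the 3 Xist libraries and -0.39 to 0.64 with 1 left out. The others changed sign only when 1 library was left out: Nr4a1 between the cell types in culture (-0.39 to 0.63) and in vivo (-0.63 to 0.17) and in the difference of the in vivo effects (-0.92 to 0.10), Klf4 in culture (-0.27 to 0.96) and in endothelium with HSPC (-0.053 to 0.014), Egr2 in stroma with HSPC (-0.41 to 0.0012), Ier2 between the cell types with HSPC (-0.20 to 0.0054) and Klf2 in stroma alone minus culture (-0.077 to 0.63). With a separate weight for each group, and without the 3 cultured libraries that carry Xist, 3 genes were called in the test of the in vivo effect between cell types, against 6. With all 8 groups in 1 fit, 6 were called in the test of the HSPC effect between cell types, against 10, and 4 between the cell types with HSPC, against 8. With only the compared groups, 3 were called in stroma alone minus culture, against 5. Leaving out 1 library gave 5 to 5 genes called between the cell types in culture, 3 to 8 in vivo, 9 to 10 alone and 7 to 9 with HSPC. It gave 10 to 10 for endothelium and 8 to 10 for stroma in vivo, 3 to 7 for the difference of these effects, 7 to 8 for endothelium and 8 to 9 for stroma with HSPC, 9 to 10 for the difference of those, 6 to 9 for endothelium and 2 to 5 for stroma alone minus culture. The cause was not tested, except that fewer libraries leave less power by construction. Counts over all tested genes moved by over 1.5 times in a few cases. Between the cell types in culture 5765 genes were called, against 2801 with only the compared groups and 3546 with weights. With all 8 groups in 1 fit, HSPC gave 1852 calls in endothelium (6813 as reported), 3591 in stroma (8551) and 2276 in the difference of these effects (7996). That fit gave 7654 calls in the difference of the in vivo effects (5000) and 5910 in endothelium alone minus culture (3267). Leaving out any endothelium alone library gave as few as 1593 genes in endothelium alone minus culture, leaving out cultured stroma replicate 1 gave 5205, and leaving out any stroma alone library gave as few as 3070 in stroma alone minus culture, against 4760. The share of higher calls went from 43.3% to 55.9% in stroma in vivo with trimmed-mean scaling, and the median of all genes from -0.15 to 0.04. In endothelium with HSPC it went from 58.2% to 45.5% with quantile normalization and to 68.5% with all 8 groups. In endothelium alone minus culture it went from 37.8% to 52.0% and 52.2% with trimmed-mean scaling and quantile normalization, and the median from -0.11 to -0.01 with trimmed-mean scaling. Same-numbered libraries did not deviate together (r of deviations from -0.16 to 0.12, over 0.1 in 1 of 18 pairs of alone and HSPC libraries and in none of the other fits), so the replicate numbers were not taken as pairs. With the replicate block as a term, Ier2 lost its call in the difference of the in vivo effects (adjusted p = 0.0545 in limma), Egr2 (0.0526) and Klf4 (0.0680) in endothelium alone minus culture and Klf6 (0.0507) in stroma alone minus culture. Ier2 in endothelium with HSPC (0.0428) and Egr2 between the cell types alone (0.0415) gained one, and the block changed no other call of the 10 genes. Without read counts, depth and counting error are unknown, and values near 0, such as those of Nr4a3 and of Egr2 in cultured endothelium, are the least certain.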
